A study of Mus musculus with 12 samples.

Results

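The measured response to retinoic acid of 7 genes differed in sign or size between wild-type and Faf2 knockout neural progenitor cells. Gxylt2, Palmd, Slc24a3 and Nkx1-2 had the more positive response in the knockout, and Nmnat2, Il3ra and Pcolce2 the more negative one. The genes are 7 of the 57010 in the deposited table, and 7 of the 16502 that passed the filter on low values. They were picked by name among the leading genes of the interaction, which is the log2 response to retinoic acid in the knockout minus the log2 response in wild type. Ranked by the p-value of that contrast, they stood at ranks 2, 3, 4, 5, 6, 15 and 16, so 9 of the first 16 genes are not among them. Levels in the 4 groups and every contrast that is part of the interaction therefore chose the genes and are given as descriptions, with no test.

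The samples were 12 mRNA sequencing libraries of NE-4C cells, a mouse neural progenitor line from embryonic brain, in 4 groups of 3 separate passages. WT NO cells were wild type and not induced, and WT RA cells were wild type, received 1 µM all-trans retinoic acid (RA) for 24 h and were collected on day 3 after induction in basal medium. KO NO and KO RA cells carried a CRISPR/Cas9 deletion of exon 4 of Faf2 and were handled in the same 2 ways. The knockout is a line grown from a picked colony, so what belongs to the deletion and what belongs to that colony cannot be told apart. The NO cells were collected without perturbation, and neither a vehicle control nor NO cells kept to a matching day are described. RA, the days to collection and the handling that came with it therefore cannot be told apart.

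FAF2 is an adaptor at the endoplasmic reticulum membrane that hands ubiquitinated proteins to the p97 ATPase for degradation. RA enters cells and binds nuclear receptors, which act at response elements in DNA and switch on differentiation genes in neural progenitors. The 7 genes belong to different cellular systems. Gxylt2 encodes a xylosyltransferase that extends O-glucose on the EGF repeats of Notch, and Nkx1-2 a homeobox factor of caudal epiblast and early neural plate. Palmd encodes palmdelphin, a cytosolic relative of the paralemmins, and Slc24a3 the potassium-dependent sodium/calcium exchanger NCKX3. Nmnat2 makes NAD and is needed for axon survival, Il3ra is the alpha chain of the interleukin-3 receptor, and Pcolce2 helps the proteinases that trim the ends of procollagens.

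The 7 genes lie on chromosomes 6 (Gxylt2), 7 (Nkx1-2), 3 (Palmd), 2 (Slc24a3), 1 (Nmnat2), 14 (Il3ra) and 9 (Pcolce2) of mouse genome GRCm39, and each is annotated as protein coding. The 250 bases before the annotated start site are shown for the 3 genes whose KO RA libraries all lay above the other groups and for Nkx1-2, whose KO libraries overlapped, so that their letters can be compared. They are written 5′ to 3′ on the strand of the gene, with capitals for AGGTCA (the half-site of retinoic acid receptors), CCAAT and GGGCGG (the letters of CCAAT and GC boxes) on either strand.
Gxylt2 (chr6:100681421-100681670, + strand): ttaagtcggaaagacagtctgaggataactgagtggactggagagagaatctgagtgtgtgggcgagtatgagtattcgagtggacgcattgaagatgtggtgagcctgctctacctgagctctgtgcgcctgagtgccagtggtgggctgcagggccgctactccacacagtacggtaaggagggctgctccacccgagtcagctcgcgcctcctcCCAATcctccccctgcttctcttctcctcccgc
Palmd (chr3:116762637-116762886, - strand): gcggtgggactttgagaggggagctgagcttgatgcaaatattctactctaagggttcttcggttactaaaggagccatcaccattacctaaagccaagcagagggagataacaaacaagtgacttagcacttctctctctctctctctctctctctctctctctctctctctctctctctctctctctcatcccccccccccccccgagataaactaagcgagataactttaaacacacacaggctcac
Slc24a3 (chr2:145009424-145009673, + strand): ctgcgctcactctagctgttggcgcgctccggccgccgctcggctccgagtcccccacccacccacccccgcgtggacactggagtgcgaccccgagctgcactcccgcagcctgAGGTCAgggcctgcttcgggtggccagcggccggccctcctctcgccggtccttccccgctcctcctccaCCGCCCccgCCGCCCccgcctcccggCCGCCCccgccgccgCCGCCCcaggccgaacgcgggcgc
Nkx1-2 (chr7:132201367-132201616, - strand): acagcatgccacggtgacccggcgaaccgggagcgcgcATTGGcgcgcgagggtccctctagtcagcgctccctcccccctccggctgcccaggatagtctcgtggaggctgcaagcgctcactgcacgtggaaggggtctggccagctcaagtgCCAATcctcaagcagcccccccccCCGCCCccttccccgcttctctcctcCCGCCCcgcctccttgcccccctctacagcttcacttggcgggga

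The 4 stretches differed in composition more than in shared letters. GC content was 58.0% before Gxylt2, 48.8% before Palmd, 79.2% before Slc24a3 and 69.6% before Nkx1-2, against a median of 53.2% over 21770 promoters of the same length. AGGTCA was found before 1 of the 7 genes, Slc24a3, and in 13.1% of all promoters, and within 1000 bases on each side of the start it was found in 6 of the 7 and in 67.9% of all. Direct repeats of the consensus half-site (DR1, DR2 and DR5, each of which can hold the single motif too) were found before 0 of the 7, and in 0.184%, 0.0919% and 0.0551% of all promoters. In the wider window they were also found in 0 of the 7, and in 1.27%, 1.19% and 0.588% of all. CCAAT stood before Gxylt2 and Nkx1-2 (36.5% of all promoters), GGGCGG before Nkx1-2, Slc24a3 and Il3ra (36.3%), and TATAAA (11.9%) and TGACGTCA (1.69%) before none of the 7. A match is only a run of letters, and no match says nothing of whether a receptor bound.

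Levels are given in CPM, the usual unit of counts scaled to a common library total, here from the deposited estimated counts with TMM factors. The deposited counts are already corrected for gene length, so a level can be compared between genes. Library totals were 25189054 to 27513718 in WT NO and 20309362 to 23867492 in WT RA, with 29350783 to 30738717 in KO NO against 17370069 to 25660576 in KO RA. The library KO RA replicate 3 stood apart before any result: its TMM factor was 0.394 against 0.872 to 1.277 in the other 11 libraries, its 100 most abundant genes took 62.5% of the counts against 37.1% to 50.4%, and mitochondrial genes took 23.5% against 9.1% to 17.7%. Its values are given with and without that scaling. The labelled cell type was checked against 9 neural progenitor markers, all of them detected. Their summed level was 509 to 537 CPM in WT NO and 572 to 770 in WT RA, and 396 to 445 in KO NO against 842 to 984 in KO RA. The sum hides differences between markers. From KO NO to KO RA the mean of Vim went from 130 to 542 CPM, and that of Otx2 alone fell, from 152 to 68.6. Pax6 had means of 7.4 CPM in WT NO and 1.3 in KO NO. In the same 2 groups Sox1 had 0.521 and 0.22 CPM, and Fabp7 0.464 and 0.268.

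Faf2 itself was measured in every library. It was at 50.0, 38.8 and 36.0 CPM in WT NO and 35.1, 37.9 and 49.1 in WT RA, with 21.0, 21.7 and 25.4 in KO NO against 36.1, 34.3 and 18.7 in KO RA. Without RA the knockout had the lower values in every library, while the groups after RA overlapped. A count over the whole gene mixes transcripts that have exon 4 with those that lack it, so it is no measure of the deletion.

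Gxylt2 had its lowest level in KO NO and its highest in KO RA. It was at 0.264, 0.237 and 0.307 CPM in KO NO, which is 8 to 11 of the deposited scaled counts a library. In KO RA it was at 9.7, 6.54 and 8.62 CPM, so its mean was 30.8 times higher. In wild type it was at 0.845, 1.48 and 1.25 CPM in WT NO and 3.22, 4.17 and 2.29 in WT RA, a mean 2.71 times higher. No 2 of the 4 groups overlapped, and the order KO NO, WT NO, WT RA, KO RA held for every library. The log2 response to RA was 1.43 ± 0.33 (SE) in WT and 4.92 ± 0.39 in KO, a difference of 3.48 ± 0.48.

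Slc24a3, the calcium exchanger, followed the same order at similar levels. It was at 0.293, 0.267 and 0.195 CPM in KO NO (7 to 10 counts a library) and at 4.74, 4.53 and 3.87 CPM in KO RA, a mean 17.4 times higher. In wild type it was at 0.88, 1.4 and 0.732 CPM in WT NO and 1.35, 1.89 and 1.29 in WT RA, and these groups overlapped. KO NO lay below both wild-type groups and KO RA above both. The log2 response was 0.59 ± 0.36 (SE) in WT and 4.10 ± 0.41 in KO, a difference of 3.51 ± 0.53. Without WT NO replicate 2, its highest WT NO library, the response in WT was 0.90 and the difference 3.19.

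Palmd had the highest level of the 7 genes in any group. It was at 66.6, 105 and 48.3 CPM in KO RA and at 3.54, 1.63 and 2.04 in KO NO, a mean 30.6 times higher. WT NO libraries had 1.27, 1.33 and 1.95 CPM and WT RA libraries 4.33, 4.51 and 4.35, a mean 2.89 times higher. Unlike Gxylt2 and Slc24a3, Palmd was not the lowest in KO NO, which overlapped WT NO. After RA its mean was 16.7 times higher in the knockout, and its mean level in KO RA was above that of 88.7% of the tested genes, against 28.3% in WT NO. The log2 response was 1.53 ± 0.36 (SE) in WT and 4.93 ± 0.40 in KO, a difference of 3.40 ± 0.50.

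In Nkx1-2 the positive interaction came with a lower level after RA in wild type. This homeobox gene was at 5.25, 4.47 and 8.42 CPM in WT NO and at 0.481, 0.679 and 0.478 in WT RA, so its mean was 11.1 times higher before RA. In the knockout it was at 1.26, 1.63 and 0.838 CPM in KO NO and 1.44, 1.33 and 1.29 in KO RA. The knockout groups overlapped each other and lay between the wild-type groups. The log2 response was −3.46 ± 0.40 (SE) in WT and 0.13 ± 0.37 in KO, a difference of 3.59 ± 0.53. Without WT NO replicate 3, its highest WT NO library, the response in WT was −3.14 and the difference 3.28. The sign of the small response in KO was not fixed: it was −0.08 without KO NO replicate 3 and −0.11 without TMM factors.

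**Figure D1:**
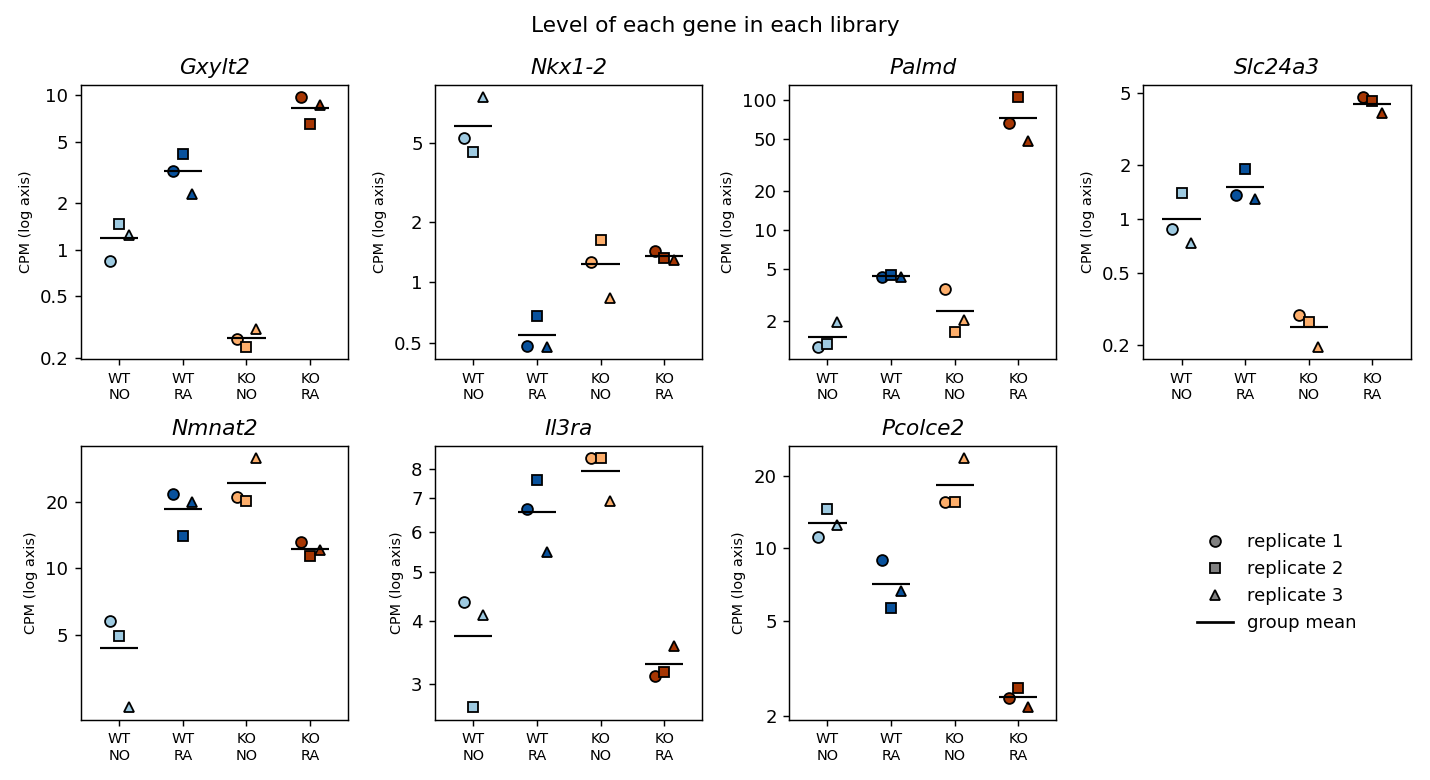
Level of each of the 7 genes (CPM with TMM factors, log axis) in the 3 libraries of each group, with symbols for the replicate and a line at the group mean. In Gxylt2 and Slc24a3 KO NO is the lowest group and KO RA the highest, Palmd reaches 48.3 to 105 CPM in KO RA, and in Nmnat2 and Il3ra the wild-type groups rise from NO to RA while the knockout groups fall.

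Nmnat2, the NAD-making enzyme of axons, had levels that crossed between the genotypes. It was at 5.78, 4.95 and 2.35 CPM in WT NO and 21.7, 14.1 and 20.0 in WT RA, a mean 4.27 times higher. Knockout cells started at 21.1, 20.3 and 31.6 CPM in KO NO and had 13.2, 11.4 and 12.1 CPM in KO RA, where KO NO was the higher by 1.99 times. With TMM factors KO NO overlapped WT RA, and the other groups lay apart. With DESeq2 size factors instead, KO RA (up to 14.3 CPM) overlapped WT RA (from 13.8 CPM) too. The log2 response was 2.09 ± 0.34 (SE) in WT and −0.99 ± 0.33 in KO, a difference of −3.08 ± 0.47.

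Il3ra had the same crossing at a smaller size. It was at 4.37, 2.7 and 4.12 CPM in WT NO and 6.68, 7.61 and 5.49 in WT RA, a mean 1.77 times higher. In the knockout it was at 8.41, 8.41 and 6.92 CPM in KO NO and 3.11, 3.17 and 3.57 in KO RA, with the KO NO mean 2.41 times the KO RA mean. KO RA overlapped WT NO, and KO NO overlapped WT RA. The log2 response was 0.82 ± 0.25 (SE) in WT and −1.27 ± 0.26 in KO, a difference of −2.09 ± 0.36.

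Pcolce2, the procollagen enhancer, was lower after RA in both genotypes and more so in the knockout. It was at 11.1, 14.6 and 12.5 CPM in WT NO and 8.94, 5.63 and 6.64 in WT RA, and the WT NO mean was 1.8 times the WT RA mean. In KO NO it was at 15.6, 15.6 and 23.7 CPM and in KO RA at 2.39, 2.62 and 2.18, a ratio of 7.63. No 2 groups overlapped, and KO NO was the highest group and KO RA the lowest. The log2 response was −0.85 ± 0.25 (SE) in WT and −2.92 ± 0.27 in KO, a difference of −2.07 ± 0.36.

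**Figure D2:**
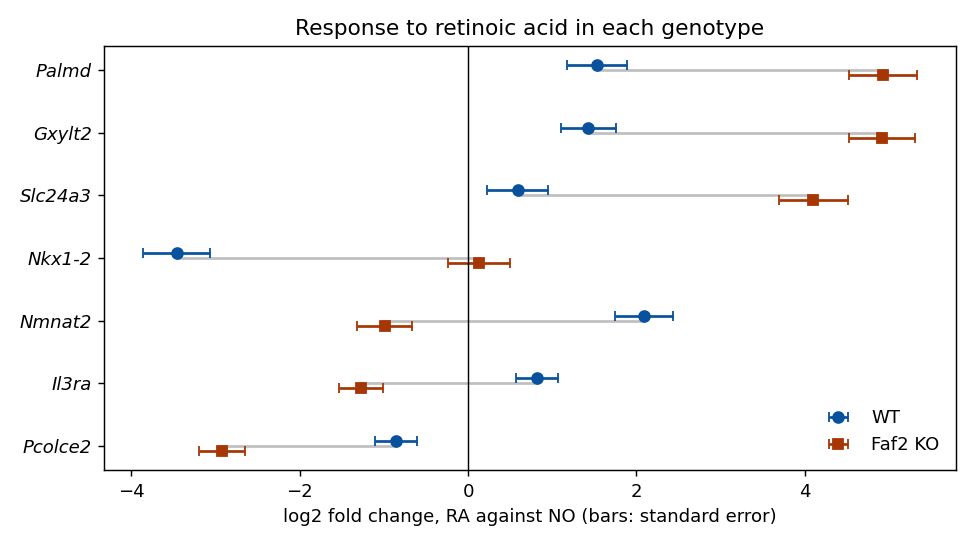
Log2 fold change from NO to RA of each gene in WT (circles) and Faf2 KO (squares), with bars of 1 standard error from the edgeR fit of all 12 libraries. Palmd, Gxylt2 and Slc24a3 lie at 4.10 or more in KO and at 1.53 or less in WT, Nkx1-2 is at −3.46 in WT and 0.13 in KO, and Nmnat2 and Il3ra lie on opposite sides of 0.

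Seen from the genotypes, the estimates of 6 of the genes were on opposite sides of wild type before and after RA. The log2 difference of KO from WT was −2.13 in NO and 1.36 in RA for Gxylt2, −1.98 and 1.54 for Slc24a3, and −2.28 and 1.31 for Nkx1-2. It was 2.48 and −0.60 ± 0.33 (SE) for Nmnat2, 1.08 and −1.01 for Il3ra, and 0.52 and −1.55 for Pcolce2. Palmd was the exception, at 0.66 in NO and 4.06 in RA. Library values did not overlap for 6 of 7 genes between WT NO and WT RA (29.1% of the tested genes), for 6 of 7 between KO NO and KO RA (30.2%), for 6 of 7 between WT NO and KO NO (30.7%) and for 7 of 7 between WT RA and KO RA (20.9%). These counts follow from how the genes were chosen, and nothing is read from them.

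The interaction itself called no gene across the transcriptome. In the quasi-likelihood test of edgeR, adjusted by Benjamini-Hochberg, 0 of 16502 genes (0.0%) passed an adjusted p of 0.05, although 1423 had an unadjusted p under 0.05. DESeq2 called 246 genes, limma-voom with sample quality weights 985, and edgeR without KO RA replicate 3 called 232, while edgeR called 0 in the other alternatives. Since the 7 genes were chosen on this contrast in the same libraries, no call of theirs is counted. The choice was no cut in rank. Mt2 at rank 1, with a difference of −2.86, is not among the 7 genes. Pcolce2 at rank 16 (−2.07) is among them, and Igf2 at rank 17 (3.16) is not.

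**Figure D3:**
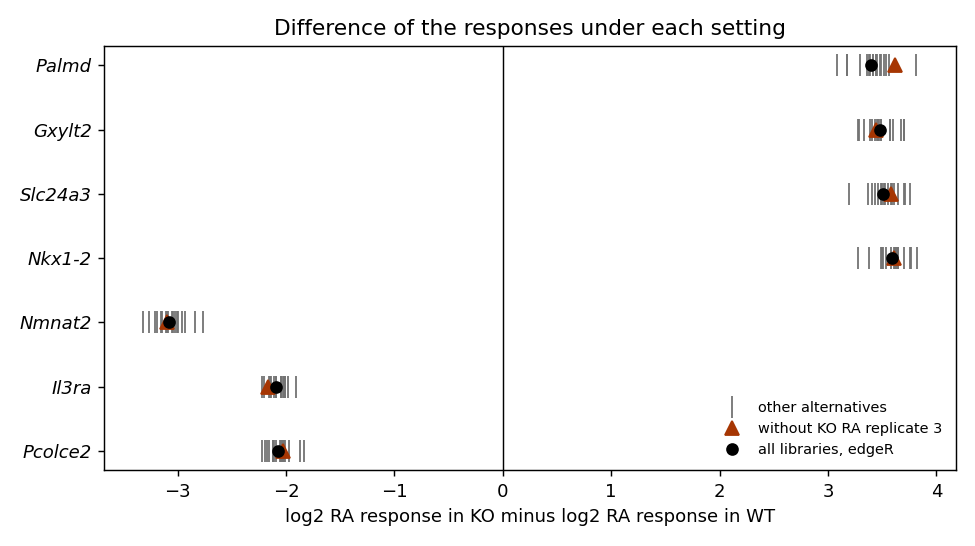
Difference of the log2 RA response (KO minus WT) of each gene in the fit of all libraries (black circle), without KO RA replicate 3 (triangle) and under the other alternatives (bars). The direction chose the genes, and the values ranged from 3.08 to 3.81 in Palmd and from −2.22 to −1.83 in Pcolce2.

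The library KO RA replicate 3 bears on every KO RA level. Relative to the mean of KO RA replicates 1 and 2, its level was 1.06 times for Gxylt2, 0.929 for Nkx1-2, 0.562 for Palmd, 0.834 for Slc24a3, 0.982 for Nmnat2, 1.14 for Il3ra and 0.869 for Pcolce2. Without TMM factors the same ratios were 0.177 for Palmd and 0.262 to 0.357 for the other genes. Of the 42 pairs of groups (6 pairs for each gene), 36 lay apart with TMM factors and 31 without, and 9 pairs changed between apart and overlapping, with 0 in the opposite order. Among them, KO RA then overlapped WT RA for Gxylt2, Slc24a3, Nkx1-2 and Nmnat2. Leaving the library out moved the difference of the responses little, to 3.44 for Gxylt2, 3.61 for Nkx1-2, 3.62 for Palmd, 3.58 for Slc24a3, −3.10 for Nmnat2, −2.17 for Il3ra and −2.03 for Pcolce2. Since the genes were chosen on TMM-scaled values, closeness of the KO RA libraries on that scale is part of the choice.

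**Figure D4:**
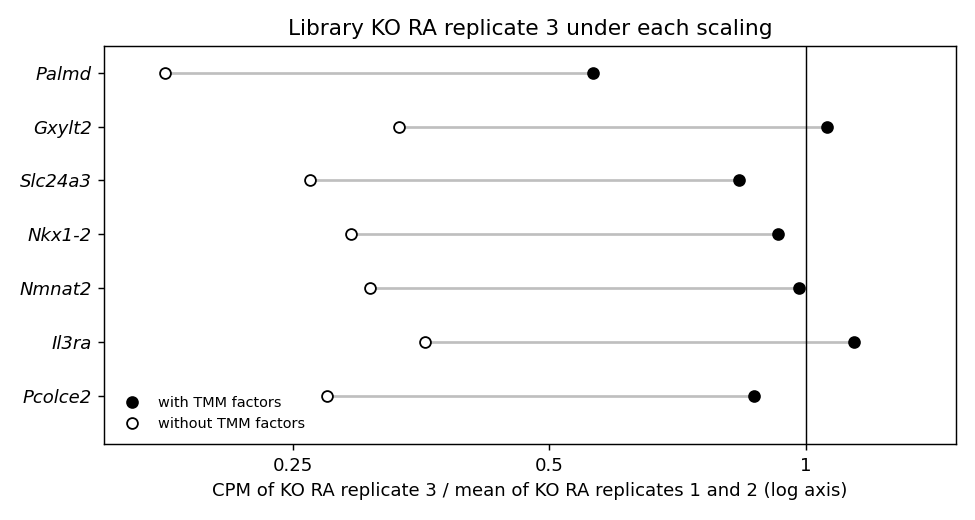
CPM of the library KO RA replicate 3 divided by the mean of KO RA replicates 1 and 2 for each gene, on a log axis, with TMM factors (filled) and without (open). With TMM factors the ratio is 0.562 for Palmd and 0.834 to 1.14 for the other 6 genes, and without them it is 0.177 to 0.357.

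The average effect of RA over both genotypes is not the contrast that chose the genes. Its coefficients are orthogonal to those of the interaction in this balanced design. But the average shares the libraries and the estimate of spread, and a small spread improves a gene's rank by p-value. The responses in WT and KO also had unequal standard errors (0.33 and 0.39 for Gxylt2). The adjusted p-values below are therefore not independent of the choice, and nothing is read from the number of calls. By edgeR (quasi-likelihood, Benjamini-Hochberg over all genes tested) 3 of the 7 genes were called higher after RA on average and 2 lower. Of the 16502 genes 8.54% were called, 5.42% higher and 3.12% lower. Palmd rose by a log2 of 3.23 ± 0.26 (SE, adjusted p = 0.000118), Gxylt2 by 3.18 ± 0.25 (adjusted p = 8.62e-05) and Slc24a3 by 2.34 ± 0.27 (adjusted p = 0.000777). Pcolce2 fell by 1.89 on the log2 scale (adjusted p = 0.000335) and Nkx1-2 by 1.67 (adjusted p = 0.00411). These 5 calls held under every alternative in which the gene was tested, with adjusted p-values up to 0.0299. The Nkx1-2 average joins −3.46 in WT and 0.13 in KO, so it is a fall in WT alone. The Slc24a3 average joins 0.59 ± 0.36 in WT, where the libraries without and with RA overlapped, and 4.10 ± 0.41 in KO. Nmnat2 (0.55 ± 0.23, adjusted p = 0.155) and Il3ra (−0.22 ± 0.18, adjusted p = 0.44), the genes whose responses had opposite signs, did not pass.

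The average effect of genotype, tested in the same way and with the same limits, passed for 2 of the 7 genes. Palmd was higher in the knockout by a log2 of 2.36 ± 0.26 (adjusted p = 0.00077 with edgeR, and called in 19 of 19 alternatives), where 3.99% of all genes were called. That average joins 0.66 ± 0.36 without RA, where the genotypes overlapped, and 4.06 ± 0.38 after RA. Nmnat2 was higher on average by 0.94 ± 0.23 (adjusted p = 0.047), but this call held in 5 of 19 alternatives, with adjusted p-values from 0.0029 to 0.201, and in 2 of the 12 fits that left out a library. The Nmnat2 average joins 2.48 without RA and −0.60 after RA. Gxylt2 (−0.38), Nkx1-2 (−0.49), Slc24a3 (−0.22), Il3ra (0.04) and Pcolce2 (−0.51) did not pass, with adjusted p-values of 0.151 to 0.939.

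Other genes of the same systems were read from 7 lists, of which 51 genes besides the 7 were tested. The interaction called 0 of the 51, RA in WT called 3 higher and 1 lower (of all genes 0.406% were called, 0.321% higher and 0.0848% lower), and RA in KO called 7 higher and 1 lower (5.48%, 3.89% and 1.59%). Every adjusted p on these lists is from edgeR's quasi-likelihood test over all genes. Without TMM factors RA in WT called 0 genes of any kind.

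Among 10 genes of Notch EGF-repeat glycosylation, 0 were called in any of the 3 contrasts. Gxylt1, the paralog of Gxylt2, was at mean levels of 13.1 CPM in WT NO and 9.73 in WT RA, with 11.3 in KO NO against 14.0 in KO RA, so its mean was above that of Gxylt2 in each group, though the library values overlapped in KO RA. The median log2 response of the list was −0.33 in WT and 0.27 in KO, against −0.01 and 0.11 over all tested genes.

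Of the caudal epiblast and neuromesodermal progenitor list that Nkx1-2 belongs to, 10 genes were tested. T (brachyury), which marks posterior mesoderm progenitors, fell in both genotypes, by 2.17 on the log2 scale in WT (adjusted p = 0.0368) and by 2.25 in KO (adjusted p = 0.0082). Its mean level went from 74.6 to 16.6 CPM in WT and from 46.9 to 9.82 CPM in KO. Cyp26a1, the RA-degrading enzyme and a direct RA target, rose by a log2 of 2.49 in WT (adjusted p = 0.0339) and 3.72 in KO (adjusted p = 0.00062), from mean levels of 0.35 to 1.99 CPM and of 0.941 to 12.5 CPM. So T was lower after RA in the knockout too, where Nkx1-2 was at 1.24 CPM before and 1.35 after. The KO call of T was lost without TMM factors, and the calls in WT held in 3 of 12 fits without a library for T and in 2 of 12 for Cyp26a1. Nkx1-1, the paralog, had at most 0.141 CPM in any library and was not tested.

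Neither tested relative of Palmd was called. Palm had means of 19.4, 22.3, 18.4 and 19.1 CPM in WT NO, WT RA, KO NO and KO RA, and Palm3 of 4.02, 1.16, 2.92 and 0.852. Palm2, Akap2 and Palm2akap2 were not analysed here.

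Of the exchangers and calcium pumps, 6 genes were tested and 1 was called. Slc8a1, the sodium/calcium exchanger NCX1, rose in KO by a log2 of 2.93 (adjusted p = 0.0131), from a mean of 0.238 to 1.84 CPM, and had 0.682 and 1.09 CPM in WT NO and WT RA (0.68, adjusted p = 0.671). Its difference of the responses, 2.25 ± 0.74, did not pass (adjusted p = 0.432). The call was lost without KO NO replicate 1 or 2 and without TMM factors. Slc24a4, the paralog closest to Slc24a3, had at most 0.0991 CPM in any library.

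Of the NAD list 10 genes were tested and 0 called. Nmnat1, the nuclear paralog of Nmnat2, had means of 8.41, 8.42, 9.83 and 7.71 CPM in WT NO, WT RA, KO NO and KO RA, so that Nmnat2 was below it in WT NO and above it in the other groups. Nmnat3, the mitochondrial enzyme, had at most 0.533 CPM. Nampt, which makes the precursor of NAD, was at 60.1, 116, 55.6 and 83.4 CPM and did not pass (adjusted p = 0.277 in WT and 0.307 in KO).

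The receptor system of Il3ra was partly not detected at this depth. Il3 and Csf2, which encode interleukin-3 and GM-CSF, were listed at 0 in all libraries, which allows up to 3 reads in each by counting error alone. Csf2rb, the shared signalling chain, was at 0 in WT NO and KO NO, at up to 0.385 CPM in WT RA and at 0.0991 to 0.92 CPM in KO RA, and did not pass the filter on low values. Jak2, the kinase of the receptor, rose in KO by a log2 of 0.97 (adjusted p = 0.0492), a call that held in 2 of 12 fits without a library and not without TMM factors. Of 9 haematopoietic markers the summed level was 3.1 to 4.97 CPM in WT NO and 3.49 to 4.86 in WT RA, with 3.02 to 3.78 in KO NO against 7.73 to 10.4 in KO RA. The largest means in KO RA were those of Cd68 (3.56 CPM), Cd34 (2.85), Tal1 (1.17) and Runx1 (1.12). Ptprc and Spi1 had means of 0.122 and 0.121 CPM there and Itgam of 0, and Csf1r had at most 3 scaled counts in any library. RA in KO called 1 of the 4 tested markers higher, where 3.89% of all tested genes were called higher.

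The list of procollagen processing, to which Pcolce2 belongs, had calls in the upward direction alone. Of 9 tested genes, 2 were called higher in WT and 4 in KO, and 0 lower. All calls but that of Bmp1 were of collagen genes, which are also on the list of mesenchymal markers. Without a call, the KO response was negative in Mep1b (−0.71) and Adamts14 (−0.07), and it was positive in the other tested genes. Col3a1 rose by a log2 of 5.18 in WT (adjusted p = 0.00531) and 6.42 in KO (adjusted p = 0.000294), to means of 22.1 and 41.0 CPM. Col1a2 rose by 3.05 (adjusted p = 0.0162) and 5.51 (adjusted p = 0.000168). Col1a1 rose in KO by 7.20 (adjusted p = 0.00288) from a mean of 0.0284 CPM (0 to 0.0558), a level too low to fix the size of the fold, and Bmp1, the procollagen C-proteinase that Pcolce2 helps, by 1.62 (adjusted p = 0.047). The Bmp1 call held in 3 of 12 fits without a library, and the WT calls of Col1a2 in 7 of 12 and of Col3a1 in 11 of 12. Pcolce, the paralog of Pcolce2, had means of 41.9 and 38.0 CPM in wild type without and with RA and of 15.7 and 34.5 CPM in the knockout and did not pass (KO response 1.14, adjusted p = 0.106).

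**Figure D5:**
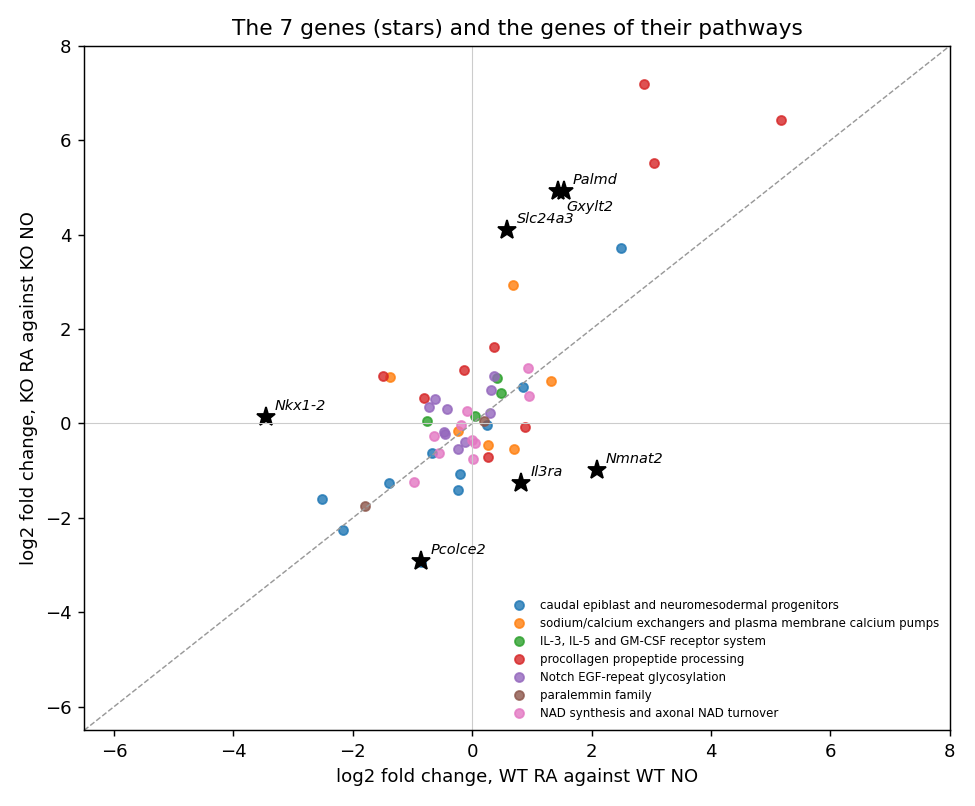
Log2 fold change from NO to RA in KO (vertical) against WT (horizontal) for the 7 genes (stars) and the tested genes of the 7 lists (dots, coloured by list), with a dashed line where both are equal. The 7 genes lie off the line because they were chosen for it, and the 3 dots at 5.51 or more on the vertical axis are Col1a1, Col1a2 and Col3a1.

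Sums of mesenchymal, neuronal and endothelial markers had their highest means in KO RA, as had the neural progenitor and haematopoietic sums given above. The sum of endoderm markers overlapped between KO RA and both wild-type groups. In bulk samples a change in the number of cells of a type and a change of RNA per cell cannot be told apart. The summed level of 9 mesenchymal markers was 25.5 to 68.7 CPM in WT NO and 109 to 124 in WT RA, with 43.1 to 50.9 in KO NO against 122 to 436 in KO RA, and that of 9 neuronal markers was 84.4 to 117, 155 to 175, 76.1 to 94.1 and 178 to 275. The mesenchymal marker Dcn alone ranged from 12.7 to 345 CPM within KO RA. Of the neuronal markers, Rbfox3 had means of 1.62 CPM in KO NO and 0.445 in KO RA, and Snap25 of 2.38 and 2.02. The other neuronal markers had higher means in KO RA than in KO NO, but the libraries of Dcx and Elavl3 overlapped. Dcx was at 1.49 to 9.12 CPM in KO RA and 3.71 to 4.65 in KO NO. Elavl3 was at 0.496 to 3.43 CPM and 0.908 to 1.01. The sum of 6 endothelial markers was at most 2.81 CPM outside KO RA and 4.66 to 15.5 within it. The sum of 6 endoderm markers was 5.89 to 7.54 CPM in WT NO and 5.11 to 8.83 in WT RA. It was 2.46 to 3.61 in KO NO and 4.76 to 8.53 in KO RA. Of its 4 tested genes 0 were called after RA in either genotype. RA in KO called 5 of 9 neural progenitor, 3 of 9 neuronal, 4 of 9 mesenchymal and 2 of 3 tested endothelial markers higher. It called 0 of them lower, where 3.89% of all tested genes were called higher and 1.59% lower. RA in WT called 3 of 9 mesenchymal markers higher and 0 of the other marker lists, where 0.321% of all tested genes were called higher. Gxylt2, Palmd and Slc24a3 had their highest means in KO RA too. The mesenchymal sums of KO RA and WT RA overlapped, and the part of these markers in the levels of the 7 genes was not tested.

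Genes with the most similar profiles were found by the root mean square difference of standardised log2 CPM over the 12 libraries, among genes other than the 7 with a mean of at least 1 CPM. Closest to Gxylt2 were P4ha3 (0.225 SD units), a prolyl hydroxylase subunit, and Gadd45g (0.226), against a median of 1.45 over genes. Closest to Slc24a3 were Vcan (0.26), the proteoglycan versican, and Twist2 (0.289), a mesenchymal transcription factor. Anxa6 (0.308) and ccdc198 (0.319) were closest to Palmd, but ccdc198 had at most 0.195 CPM outside KO RA, and the difference of Anxa6 from Palmd was 0.542 without TMM factors.

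For the other 4 genes the differences were 0.308 or more. Efhd2 (0.34) and Srxn1 (0.357) came nearest to Nkx1-2, Gen1 (0.308) and Cdc20 (0.354) to Pcolce2, Csrnp1 (0.402) and Mus81 (0.43) to Nmnat2, and Ctsd (0.497) and Zmym2 (0.517) to Il3ra. Among the 7 genes themselves Gxylt2 and Slc24a3 differed least, by 0.229, a value similar to that of the closest other genes. Palmd differed from Slc24a3 by 0.638 and from Gxylt2 by 0.659, Nmnat2 from Il3ra by 0.875 and Il3ra from Pcolce2 by 0.982. All of these profiles share the same 12 libraries and scaling.

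Within 250 kb of the 7 genes 28 other genes were tested. The interaction and RA in WT each called 0 of the 28. RA in KO called 3 of them, where 5.48% of all tested genes were called: Shq1 near Gxylt2 and Chst2 and Atr near Pcolce2, which were named after their values were seen. Exons of 5 of the 7 genes overlap annotated genes of the opposite strand, and whether the counting used strand is not given in the sources used here. Of these antisense genes, those in the table had at most 0.67 CPM in any library, in Gm48860 opposite Il3ra.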

How the data were processed

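The authors sequenced polyA libraries of 12 samples and ran the nf-core RNA-seq pipeline with its defaults, in which STAR aligned reads to mouse genome GRCm39 and Salmon quantified genes. The deposited values are estimated counts scaled from TPM, which corrects them for length: genes above 0 in a single library had a median of 12.0 up to 500 bp of exons (678 genes) and 0.784 over 4000 bp (521 genes). They were rounded to whole numbers. edgeR 4.0.16 in R 4.3.3 fitted all 12 libraries (filterByExpr, TMM, quasi-likelihood F test, robust), with Benjamini-Hochberg adjustment over 16502 genes, and was tested on simulated data. Alternatives used DESeq2 1.42.0 and limma 3.58.1, other filters and scalings, a replicate block and fits without each library; the fit without TMM factors was added after the data were seen. Same-numbered libraries did not deviate together (correlations −0.17 to 0.07 over 18 pairs). No library was a copy of another. Between replicates, 41.8% to 82.7% of genes differed by more than Poisson noise of the deposited values. Those values are scaled and not reads, so this is a rough measure. The pairs that held KO RA replicate 3 were at 81.2% and 82.7%. Those that held WT NO replicate 3 were at 70.3% and 70.8%, and the other pairs at 41.8% to 52.9%. Passages of 1 line are the replicates, so p-values measure the spread between passages.

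The 7 genes and the lists were chosen with earlier results of these data known. Named besides them were Faf2, fixed paralogs, for each gene the 2 most similar profiles, and up to 4 called genes for each list and contrast. Positions and sequences were read from GRCm39 with the GENCODE annotation.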

Additional observations from a re-analysis of the deposited data

Results flagged for a closer look

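Nmnat2 and Il3ra stood out because every KO RA library lay below every KO NO library while every WT RA library lay above every WT NO library. The difference of the log2 responses was −3.08 in Nmnat2 and −2.09 in Il3ra. It is given as a description, with no test, because the genes were chosen on it. Without TMM factors WT NO and WT RA overlapped for Il3ra.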

How the results depend on the processing

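The difference of the responses, whose direction chose the genes, had 1 sign for each of the 7 under each of the 19 alternatives in which a gene was tested (18 for Gxylt2 and Slc24a3, which were not tested with at least 10 counts in every library), and leaving out single libraries gave 3.28 to 3.70 for Gxylt2, 3.28 to 3.82 for Nkx1-2, 3.08 to 3.81 for Palmd, 3.19 to 3.71 for Slc24a3, −3.32 to −2.77 for Nmnat2, −2.22 to −1.91 for Il3ra and −2.22 to −1.83 for Pcolce2. The numbers of genes called over the transcriptome depended on the setting, and the cause was not tested. The interaction called 0 genes with edgeR, 246 with DESeq2, 985 with limma-voom and 0 to 232 without single libraries. RA in WT called 67 genes with edgeR, 781 with DESeq2, 3562 with limma-voom, 43 with no filter, 36 with at least 10 counts in every library, 0 without TMM factors and 0 to 1868 without single libraries (0 without WT NO replicate 1, 1868 without KO RA replicate 3). RA in KO called 904, 2528 with DESeq2, 4531 with limma-voom, 583 with no filter, 140 without TMM factors and 194 to 2776 without single libraries (194 without KO NO replicate 1, 2776 without KO RA replicate 3). The average RA effect called 1410, 3056 with DESeq2, 5798 with limma-voom, 935 with no filter, 346 without TMM factors and 676 to 4112 without single libraries. The average genotype effect called 658, 1698 with DESeq2, 4558 with limma-voom, 283 with at least 10 counts in every library, 296 without TMM factors and 312 to 2766 without single libraries. With the replicate number as a block, a number that did not pair the libraries, the counts were 0 for the interaction, 10 for RA in WT, 467 for RA in KO, 907 for the average RA effect and 412 for the average genotype effect.

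Among single genes named in the text, the following values changed sign. For Nkx1-2, RA in KO was −0.11 without TMM factors and −0.08 to 0.36 without single libraries. The average genotype effect of Il3ra was −0.06 to 0.11 without single libraries. For Palm the interaction was 0.27 with limma-voom, 0.12 without TMM factors and −0.71 to 0.29 without single libraries, RA in WT was −0.04 without TMM factors and 0.00 to 0.34 without single libraries, and RA in KO was −0.08 with the replicate block and −0.52 to 0.49 without single libraries. For Nmnat1 the interaction was 0.02 with limma-voom, and RA in WT was −0.11 with limma-voom, −0.24 without TMM factors and −0.15 to 0.10 without single libraries. For Pcolce, RA in WT was 0.15 with limma-voom and −0.39 to 0.35 without single libraries. Among the 7 genes the lowest deposited counts were 7 to 11 in the KO NO libraries of Gxylt2 and Slc24a3. They were 10 to 14 in the WT RA libraries of Nkx1-2. These are scaled counts rather than reads, and levels this low limit their folds.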
